A study of Rattus norvegicus with 6 samples.

Results

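Glycolysis splits glucose into pyruvate in a fixed series of enzyme steps. Male germ cells replace or supplement several of the general enzymes with forms made almost only in the testis. 10 such genes, sperm-type and general, were followed here through the formation of sperm in the rat: Gapdhs, Gapdh, Pgk2, Pgk1, Ldhc, Ldha, Hk1, Pgam2, Aldoa and Tpi1. They were chosen by name, and 9 of the 10 were listed among the 21170 genes of the count tables. Pgk1 was not found under that symbol and was not analysed here.

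Hexokinase 1, from Hk1, starts the pathway by phosphorylating glucose, aldolase A, from Aldoa, cuts the sugar into triose phosphates, and triose phosphate isomerase, from Tpi1, interconverts these. Glyceraldehyde-3-phosphate dehydrogenase carries out the oxidative step, with Gapdh as the general gene and Gapdhs as the gene of the form bound to the fibrous sheath of the sperm tail, which mice need for sperm motility. Phosphoglycerate kinase makes ATP. Its general gene Pgk1 lies on the X chromosome, which is silenced in meiosis, and Pgk2 is an autosomal copy without introns that is used in male germ cells. Phosphoglycerate mutase follows, with Pgam2 as the gene of the form found in muscle and testis. Lactate dehydrogenase closes the pathway by exchanging pyruvate and lactate, with Ldha as a general gene and Ldhc as the gene of the testis-specific form.

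Single-cell RNA was measured in testicular tissue of SD rats, a laboratory strain, with 1 library per animal. The stressed group held 3 rats put through a stress model based on a frightening sound, and the control group held 3 normal rats. The labels give no age, no duration of the stress and no genetic change for either group. The stressed libraries held 409, 2506 and 2233 cells, and the control libraries 2342, 1801 and 2453 cells. Total counts per library were between 16756543, in stressed replicate 1, and 114984746, in control replicate 3, and 2 cell barcodes occurred in more than 1 library.

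Cells were grouped from their own transcriptomes, with the 10 genes and other glycolysis and pyruvate genes left out of the grouping. Levels are given in CPM, the counts of a gene scaled to 1000000 counts of a library's cells in a class. Of 11744 cells, 1329 were spermatocyte-like, 3788 were round spermatid-like and 6328 resembled elongating spermatids, which is the order in which meiotic cells become haploid cells and then condense their nuclei and build tails. The remaining 299 cells stayed unnamed. Stressed replicate 1 stood apart: 225 of its cells lay in a cluster that got no name and had Apoe, Fos and Cd74 among its leading genes. That cluster held 278 cells, 45 of them from control replicate 2. It scored highest for elongating spermatid markers, with 14 supporting markers. It stayed unnamed because its leading genes held 1 gene of another list and none of the elongating list. The named classes of stressed replicate 1 held 24 spermatocyte-like cells, 100 round spermatid-like cells and 58 cells of the elongating class. In its spermatocyte-like cells the 7 listed stromal markers summed to 669 CPM, against at most 9.04 CPM in the other libraries.

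Promoter sequences are shown for the 3 sperm-type genes and for Ldha, the general partner of Ldhc with counts enough to follow. RefSeq windows of 300 bases on assembly GRCr8, from 250 bases before to 50 bases after the gene start, were at hand for 9 of the 10 genes. The windows lie at chr1:95121006-95121305 on the minus strand for Gapdhs, chr9:27976663-27976962 on the plus strand for Pgk2, chr1:106522745-106523044 on the plus strand for Ldhc and chr1:106507842-106508141 on the plus strand for Ldha. They are written 5′ to 3′ on the strand of the gene, and capitals mark matches on either strand to the motifs searched, which were the cAMP response element TGACGTCA, its first part TGACG, the GC box GGGCGG and the TATA box TATAAA.
Gapdhs: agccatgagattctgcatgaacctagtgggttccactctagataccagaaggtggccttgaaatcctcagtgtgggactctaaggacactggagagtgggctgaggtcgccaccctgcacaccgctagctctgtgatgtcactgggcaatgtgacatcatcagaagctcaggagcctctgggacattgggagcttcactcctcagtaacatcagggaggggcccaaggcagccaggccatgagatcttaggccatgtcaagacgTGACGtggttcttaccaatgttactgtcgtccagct
Pgk2: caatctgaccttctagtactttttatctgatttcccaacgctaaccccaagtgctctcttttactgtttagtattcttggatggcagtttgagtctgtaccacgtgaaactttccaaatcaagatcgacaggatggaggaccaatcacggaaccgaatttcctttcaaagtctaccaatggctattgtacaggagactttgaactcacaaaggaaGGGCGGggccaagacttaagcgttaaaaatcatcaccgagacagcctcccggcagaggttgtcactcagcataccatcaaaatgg
Ldhc: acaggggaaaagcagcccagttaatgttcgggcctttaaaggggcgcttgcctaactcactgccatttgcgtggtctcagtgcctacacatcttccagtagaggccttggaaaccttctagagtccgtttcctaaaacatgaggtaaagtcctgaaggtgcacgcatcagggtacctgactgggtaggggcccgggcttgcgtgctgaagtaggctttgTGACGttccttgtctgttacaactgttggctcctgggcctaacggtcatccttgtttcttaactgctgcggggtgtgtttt
Ldha: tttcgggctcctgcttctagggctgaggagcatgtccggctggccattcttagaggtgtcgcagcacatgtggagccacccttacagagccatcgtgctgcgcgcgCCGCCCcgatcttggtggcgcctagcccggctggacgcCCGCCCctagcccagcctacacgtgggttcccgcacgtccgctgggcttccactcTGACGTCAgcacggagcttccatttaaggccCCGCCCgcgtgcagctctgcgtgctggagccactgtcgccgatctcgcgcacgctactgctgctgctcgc
The Ldha window held a full cAMP response element, whose first base lay at position -51 from the start, and 3 GC boxes. The first part TGACG, which also occurs within every full element, lay alone in the Gapdhs window at position 15 and in the Ldhc window at position -31. The Pgk2 window held a GC box at position -35. Of 33469 windows of all genes, 1.829% held TGACGTCA, 21.2% TGACG, 33.06% GGGCGG and 14.22% TATAAA. These matches describe letters and were not tested as binding sites.

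Gapdhs differed most between the classes among the 10 genes, and its level was higher in each later class. In spermatocyte-like cells it stood at 419, 605 and 294 CPM in stressed replicates 1 to 3 and at 334, 366 and 335 CPM in control replicates 1 to 3. In round spermatid-like cells the values were 3133, 3278 and 2067 CPM in stressed libraries and 2139, 2992 and 1562 CPM in control libraries. The elongating class had 5734, 7209 and 5846 CPM in stressed libraries and 7215, 7963 and 3930 CPM in control libraries. Every round spermatid value lay above every spermatocyte value, and every elongating value above every round spermatid value. The mean over 6 libraries was 6316 ± 1454 CPM in elongating spermatid-like cells (SD, n = 6) and 392 ± 112 CPM in spermatocyte-like cells (SD, n = 6), a ratio of 16.1. Within a library the log2 ratio was 4.02 ± 0.43 (SD, n = 6), between 3.55 and 4.44. Classes were defined on these same cells, so differences between classes are described and not tested.

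The spermatocyte level of Gapdhs, as a share of its elongating level, was close to that of the summed elongating spermatid markers. It made up 6.41% ± 1.87 (SD, n = 6) of the elongating level of the same library. The summed list of 14 elongating spermatid markers made up 5.90% ± 1.62, the protamine gene Prm2 3.40% ± 1.70 and the transition protein gene Tnp2 3.51% ± 2.17. The share of Gapdhs lay above those of Prm2 and Tnp2 in all 6 libraries, and on both sides of that of the summed list. Whether Gapdhs counts in spermatocyte-like cells came from those cells or from free RNA was not tested. Pgk2 kept 30.4% ± 4.09, Hk1 37.7% ± 7.64 and Tpi1 34.4% ± 5.02 of their elongating level in spermatocyte-like cells, each above the marker list in all 6 libraries.

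Pgk2, the autosomal phosphoglycerate kinase gene, was also higher in each later class, over a smaller range. Its spermatocyte values were 209, 270 and 261 CPM in stressed libraries and 331, 187 and 320 CPM in control libraries. Round spermatid-like cells had 396, 469 and 530 CPM in stressed libraries and 531, 490 and 551 CPM in control libraries. Elongating spermatid-like cells had 599, 848 and 1036 CPM in stressed libraries and 1021, 734 and 976 CPM in control libraries. The ranges of the 3 classes did not overlap, and the ratio of the elongating to the spermatocyte mean was 3.30, with a log2 ratio per library of 1.73 ± 0.20 (SD, n = 6).

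Hk1 and Tpi1, which have no sperm-type partner among the 10 genes, were higher in both spermatid classes than in spermatocyte-like cells. Hk1 stood at 342, 274 and 337 CPM in spermatocyte-like cells of stressed libraries and at 492, 377 and 386 CPM in those of control libraries. In round spermatid-like cells it had 790, 566 and 595 CPM in stressed libraries and 821, 684 and 547 CPM in control libraries. The elongating class had 955, 871 and 885 CPM in stressed libraries and 1231, 1273 and 756 CPM in control libraries. All spermatid values lay above all spermatocyte values, while the spermatid classes overlapped each other, and the ratio of the elongating to the spermatocyte mean was 2.70. Tpi1 had 66.9, 82.4 and 84.4 CPM in spermatocyte-like cells of stressed libraries and 102, 81.4 and 98.3 CPM in those of control libraries. Its round spermatid values were 214, 131 and 159 CPM in stressed libraries and 199, 186 and 189 CPM in control libraries. Elongating spermatid-like cells had 234, 195 and 232 CPM in stressed libraries and 318, 265 and 267 CPM in control libraries. The order was the same as for Hk1, with a ratio of the elongating to the spermatocyte mean of 2.93.

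**Figure D1:**
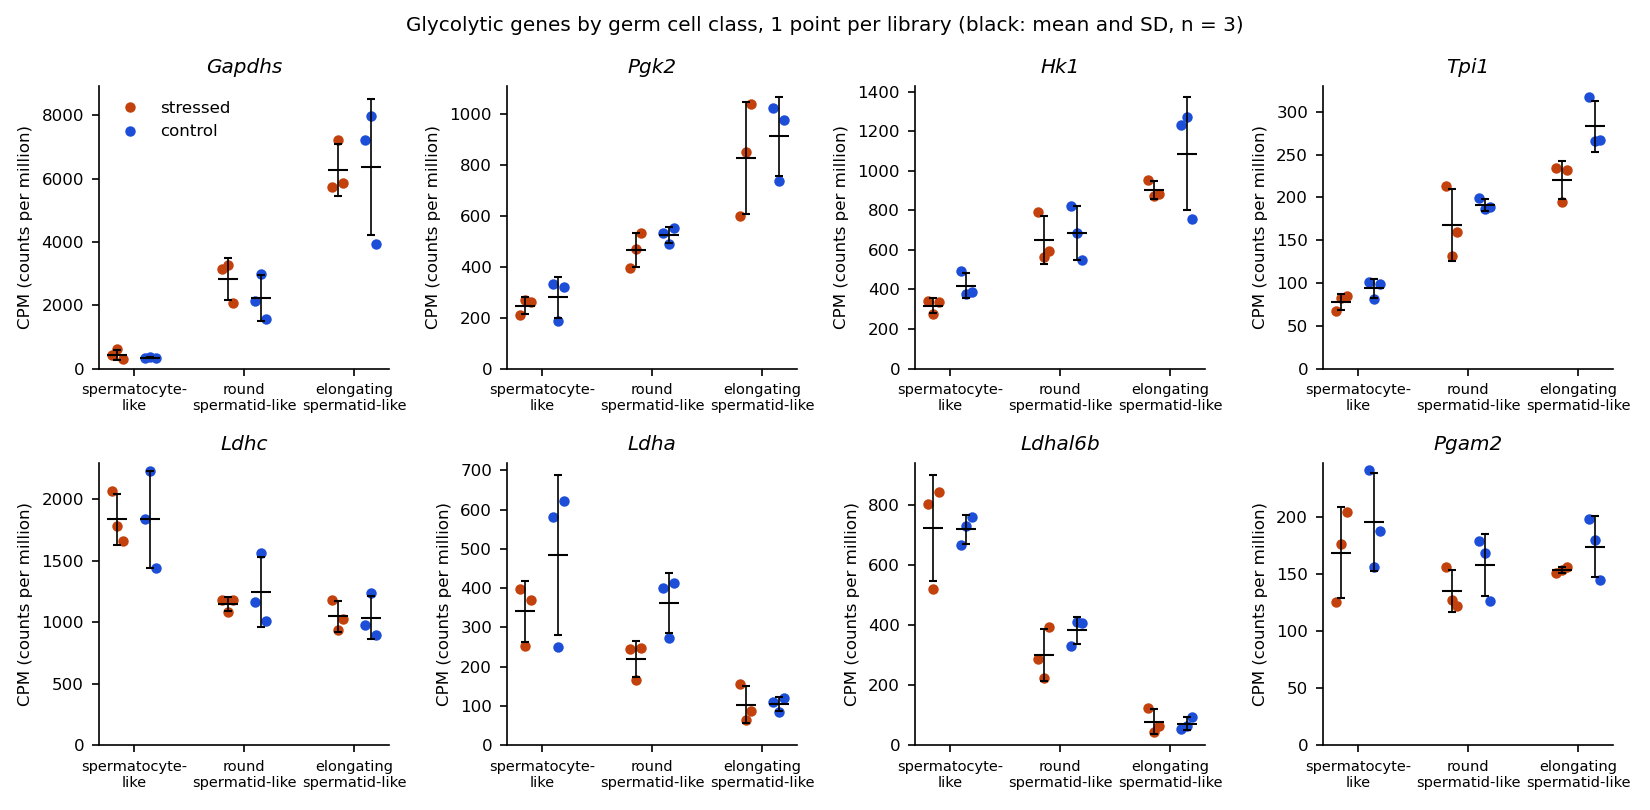
CPM of 7 of the 10 genes and of Ldhal6b in the spermatocyte-like, round and elongating classes, 1 point per library, stressed (orange) left of control (blue), with black bars for the mean and SD of 3 libraries. Gapdhs, Pgk2, Hk1 and Tpi1 are higher and Ldhc, Ldha and Ldhal6b lower in elongating than in spermatocyte-like cells, and Pgam2 overlaps in CPM between all classes.

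The lactate dehydrogenase genes had the opposite order on the CPM scale. Ldhc, the testis-specific gene, was highest in spermatocyte-like cells, at 2065, 1785 and 1660 CPM in stressed libraries and 1841, 2229 and 1439 CPM in control libraries. Round spermatid-like cells had 1183, 1084 and 1177 CPM in stressed libraries and 1166, 1566 and 1009 CPM in control libraries. Elongating spermatid-like cells had 1184, 934 and 1027 CPM in stressed libraries and 981, 1234 and 897 CPM in control libraries. All elongating values lay below all spermatocyte values, whereas the round spermatid values overlapped both. The ratio of the elongating to the spermatocyte mean was 0.568, with a log2 ratio per library of -0.81 ± 0.11 (SD, n = 6).

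Ldha differed more between the classes than Ldhc did. It had 399, 253 and 370 CPM in spermatocyte-like cells of stressed libraries and 580, 250 and 623 CPM in those of control libraries. Round spermatid-like cells had 245, 166 and 247 CPM in stressed libraries and 401, 274 and 412 CPM in control libraries. Elongating spermatid-like cells had 155, 64.5 and 87.4 CPM in stressed libraries and 109, 84.6 and 120 CPM in control libraries. The elongating values lay below those of both earlier classes, and the ratio of the elongating to the spermatocyte mean was 0.251 (log2 ratio per library -1.96 ± 0.43, SD, n = 6).

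Another lactate dehydrogenase gene, Ldhal6b (lactate dehydrogenase A-like 6B), which is not among the 10 genes, had the lowest ratio of the 3 genes. It stood at 805, 520 and 842 CPM in spermatocyte-like cells of stressed libraries and at 666, 731 and 761 CPM in those of control libraries. Round spermatid-like cells had 285, 222 and 392 CPM in stressed libraries and 331, 409 and 407 CPM in control libraries. The elongating class had 124, 44.0 and 62.8 CPM in stressed libraries and at 52.3, 65.0 and 94.7 CPM in control libraries. No values of the 3 classes overlapped, and the ratio of the elongating to the spermatocyte mean was 0.102. Together Ldhc, Ldha and Ldhal6b summed to 1227 ± 215 CPM in elongating spermatid-like cells of stressed libraries and 1213 ± 149 CPM in those of control libraries. In spermatocyte-like cells the sum was 2899 ± 356 CPM in stressed libraries and 3040 ± 198 CPM in control libraries (SD, n = 3 each).

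CPM are relative to all counts of a class. Over the 6141 genes with a mean of at least 10 CPM, the median log2 ratio of elongating to spermatocyte-like cells was -1.72 as a mean over libraries (-1.89 to -1.23). Relative to that median gene, Ldhc stood 0.91 ± 0.25 higher on the log2 scale and Ldha 0.24 ± 0.33 lower (SD, n = 6), between -0.66 and 0.28, so the lower elongating level of Ldhc holds on the CPM scale and turns relative to the median gene. Ldhal6b was 1.63 ± 0.22 lower on that scale too. Gapdhs stood 5.73 ± 0.59, Pgk2 3.44 ± 0.40, Tpi1 3.26 ± 0.23 and Hk1 3.15 ± 0.38 higher than the median gene. The ranges of median counts per cell over the libraries overlapped. They were 27700 to 39804.5 in elongating spermatid-like, 29261.5 to 49161 in round spermatid-like and 26689.5 to 44071 in spermatocyte-like cells. Within a library the classes differed in both directions. Stressed replicate 1 had 39804.5 in elongating and 28775 in spermatocyte-like cells, and control replicate 3 had 37228 in elongating and 44071 in spermatocyte-like cells.

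The ratio of Ldhc to Ldha counts does not depend on that scaling, and it was highest in elongating spermatid-like cells. The ratio is one of counts and not per length of transcript, so its change and not its size is described. In spermatocyte-like cells it was 5.18, 7.04 and 4.49 in stressed libraries and 3.17, 8.91 and 2.31 in control libraries. In round spermatid-like cells it was 4.84, 6.51 and 4.77 in stressed libraries and 2.91, 5.73 and 2.45 in control libraries. For the elongating class it was 7.62, 14.5 and 11.8 in stressed libraries and 8.98, 14.6 and 7.44 in control libraries. Within each of the 6 libraries the elongating ratio was the highest, and the log2 shift from spermatocyte-like to elongating spermatid-like cells was 0.56, 1.04 and 1.39 in stressed libraries and 1.50, 0.71 and 1.69 in control libraries. The spermatocyte ratios of single libraries spread from 2.31 to 8.91, and both of these were control libraries. Stressed and control ratios overlapped in each class.

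**Figure D2:**
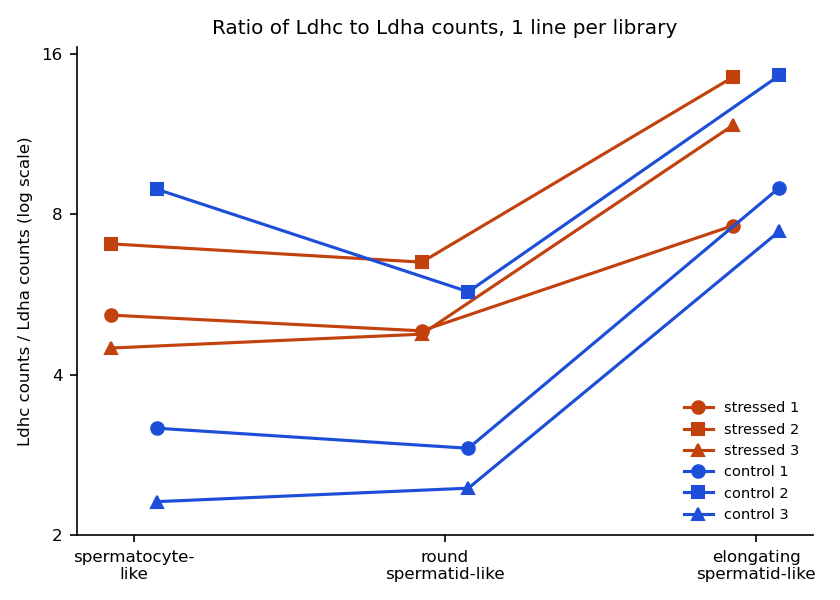
Ratio of Ldhc to Ldha counts on a log scale in the 3 classes, 1 line per library, stressed in orange and control in blue. The elongating ratios, 7.44 to 14.6, are the highest of their library in all 6 libraries, and the stressed and control lines cross.

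Gapdh, a common reference gene of other tissues, and Aldoa were nearly uncounted in these germ cells. Gapdh had 310 counts and Aldoa 217 counts over all 11744 cells. Gapdh ranged from 0 to 4.80 CPM over the sums of a library and class, and its highest value rested on 12 counts in 5 of the 58 elongating spermatid-like cells of stressed replicate 1. In spermatocyte-like cells of stressed replicate 2 it had 0 counts, where 3 counts would be 0.367 CPM, a limit that covers counting error only. A listed pseudogene, Gapdh-ps1, had 51.5, 66.7 and 49.1 CPM in round spermatid-like cells of stressed libraries and 59.0, 40.1 and 38.5 CPM in those of control libraries. A second aldolase entry, Aldoa-2, had at most 0.102 CPM in any sum of a library and class. The sources do not say how reads that match more than 1 gene or copy were counted, so the levels of genes with close relatives or copies are uncertain.

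Pgam2 overlapped between the classes on the CPM scale. In elongating spermatid-like cells it had 151, 154 and 157 CPM in stressed libraries and 198, 180 and 145 CPM in control libraries. In spermatocyte-like cells it had 126, 177 and 205 CPM in stressed libraries and 242, 157 and 188 CPM in control libraries, and all 3 classes overlapped. Relative to the median gene its elongating level stood 1.59 ± 0.24 above the spermatocyte level on the log2 scale (SD, n = 6), between 1.33 and 2.03. The brain-type gene Pgam1 had 0.2 to 6.4 CPM.

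Over the 9 listed genes, 7 had a mean of at least 10 CPM. Of these 7, 4 were higher and 2 lower in elongating spermatid-like than in spermatocyte-like cells without overlap of the 6 libraries each, against 21.5% higher and 54.9% lower among the 6141 genes. Their median log2 ratio of means was 1.43, against -1.69 for all 6141. In round spermatid-like against spermatocyte-like cells 4 were higher and 0 lower, against 28.4% and 33.9% of all genes. From round to elongating spermatid-like cells, where 8.34% of all genes were higher and 53.5% lower, Gapdhs and Pgk2 were higher and Ldha lower. These counts describe the genes and are no test.

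The 9 listed genes summed to 0.952% ± 0.066 of all counts in elongating spermatid-like cells of stressed libraries and 0.997% ± 0.251 in those of control libraries (SD, n = 3 each). In spermatocyte-like cells they summed to 0.343% ± 0.021 in stressed libraries and 0.366% ± 0.027 in control libraries. Without Gapdhs the shares were 0.326% in stressed and 0.360% in control libraries for elongating spermatid-like cells, and 0.299% in stressed and 0.331% in control libraries for spermatocyte-like cells. Nearly all of the net difference between the classes in this sum lay in Gapdhs. Of the other genes, Pgk2, Hk1 and Tpi1 were higher and Ldhc and Ldha lower in elongating spermatid-like cells. These changes partly offset each other in the sum, so the similar shares without Gapdhs do not mean that the other genes were level.

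Finer clusters placed these changes along the series of cells. The 15 clusters of the 3 classes were ordered by class and by their summed elongating spermatid markers, and means were taken over libraries with at least 20 cells in a cluster. Gapdhs stood at 128 CPM in cluster 15, the first, at 476 CPM in cluster 6, the last of the spermatocyte-like clusters, and at 1377 CPM in cluster 4, the first round spermatid-like cluster. It reached 12458 CPM in cluster 9, among the last of the elongating clusters (11070 to 14110 CPM over 4 libraries). Clusters 10 and 5, which follow cluster 9 in the order, had lower Gapdhs means of 8126 and 9820 CPM. Pgk2 had 65.6 CPM in cluster 15 and 1638 CPM in cluster 5, the last. Ldhc had its highest mean, 2205 CPM, in cluster 12 and its lowest, 554 CPM, in cluster 5. Ldha was at 219 CPM in cluster 15 and at 385 CPM in cluster 12. It had its highest mean, 420 CPM, in cluster 6 and its lowest, 17.7 CPM, in cluster 9.

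Clusters were not filled evenly by the libraries. Cluster 9 and cluster 10 each had 4 libraries with at least 20 cells, without stressed replicate 1 and control replicate 3, and cluster 5 had 4, without stressed replicate 1 and control replicate 2. Of the 58 elongating spermatid-like cells of stressed replicate 1, 39 lay in cluster 8, the earliest of that class. Cluster 8 was named on 5 supporting markers, with a mean log2 score of -0.003 for elongating spermatid markers. The other clusters of the class scored 0.41 to 0.74. Control replicate 3, which had the lowest Gapdhs level of the elongating class, was also the lowest library in each of the 5 elongating clusters where it had 20 cells.

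**Figure D3:**
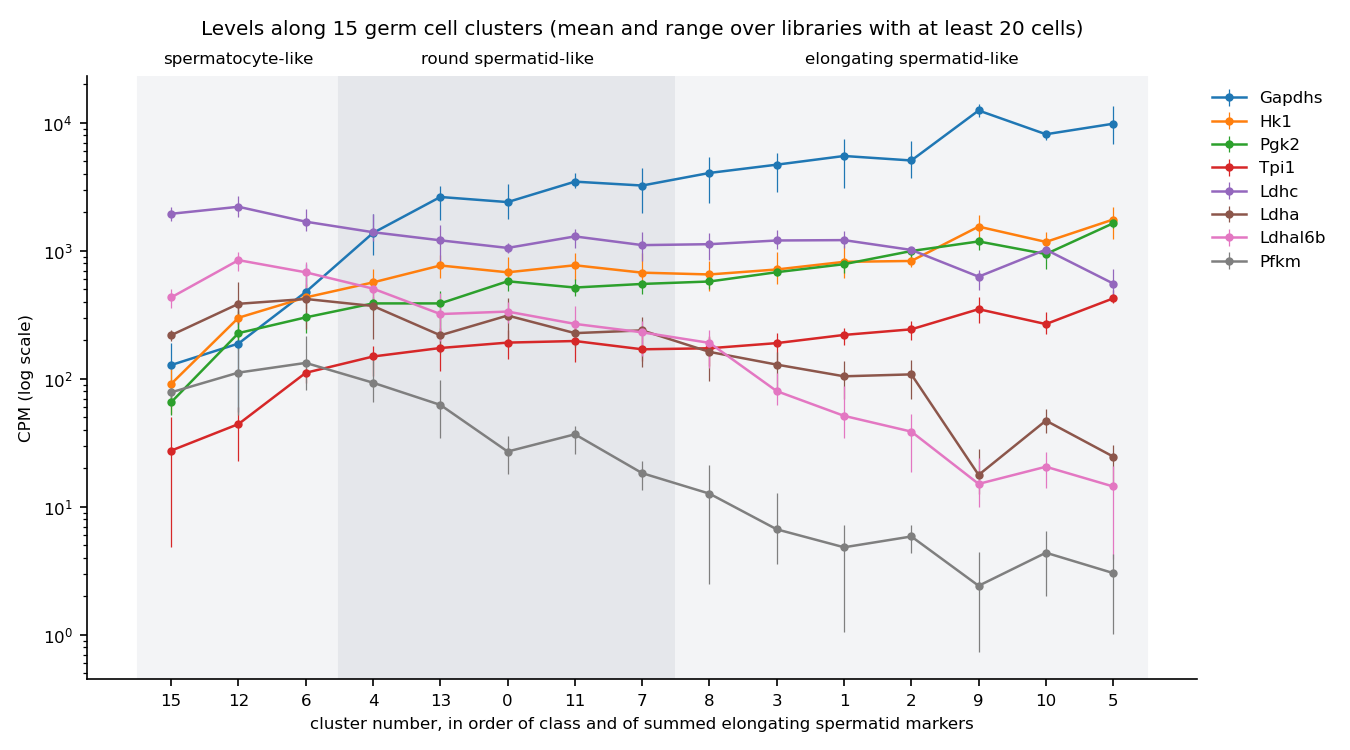
CPM on a log scale of 6 of the 10 genes, Ldhal6b and Pfkm in 15 clusters, ordered by class and by summed elongating spermatid markers. Points are means over libraries with at least 20 cells in the cluster and bars their range. Gapdhs reaches 12458 CPM in cluster 9, while Ldha is at 17.7 CPM in the same cluster.

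By the likeness of their levels over the 18 sums of a library and class, 3 genes were named for each of the sperm-type genes, out of 2925 genes with a mean of at least 50 CPM. For Gapdhs these were RGD1563405 (Pearson r = 0.992 of log2 values), Akap4, a scaffold protein of the fibrous sheath (0.989), and Odf1, an outer dense fibre protein of the tail (0.987). For Pgk2 they were Glul, glutamine synthetase (0.986), Lrrc51 (0.981) and ENSRNOG00000027055 (0.977). For Ldhc they were the ribosomal protein genes Rps15a (0.972) and Rpl23 (0.968) and ENSRNOG00000064545 (0.967). The 3 sums of a library share that library, and all sums share the order of classes, so these values are descriptive. Akap4 and Odf1 were also on the elongating spermatid marker list that named the classes and ordered the clusters. Their likeness to Gapdhs over the classes is therefore no separate finding. Among the 10 genes, Gapdhs had r = 0.89 with Pgk2, 0.91 with Hk1, 0.91 with Tpi1, -0.81 with Ldhc and -0.82 with Ldha over the same 18 sums.

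The other genes of glycolysis differed in their order. Of 29 listed, 28 were in the tables and 10 had a mean of at least 10 CPM, and of these 3 were higher and 5 lower in elongating spermatid-like than in spermatocyte-like cells, against the 21.5% and 54.9% of all genes. Aldoart2, an aldolase retrogene expressed in sperm in the mouse, averaged 264 ± 57.1 CPM in elongating and 62.4 ± 36.6 CPM in spermatocyte-like cells (SD, n = 6). The phosphofructokinase genes Pfkm and Pfkp, whose enzyme commits sugar to glycolysis, were lower: Pfkm averaged 6.75 CPM in elongating and 121 CPM in spermatocyte-like cells, and Pfkp 6.08 CPM in elongating and 109 CPM in spermatocyte-like cells. Eno1, the general enolase, averaged 236 CPM in elongating and 258 CPM in spermatocyte-like cells, and its classes overlapped. Bpgm, which makes bisphosphoglycerate, averaged 77.2 CPM in elongating and 97.5 CPM in spermatocyte-like cells, with overlap. Pgp, a phosphatase that clears side products of glycolysis, averaged 1436 CPM in elongating and 2452 CPM in spermatocyte-like cells. Relative to the median gene the direction of Pgp turned: it stood 0.94 ± 0.36 higher on the log2 scale in elongating than in spermatocyte-like cells, and Eno1 stood 1.58 ± 0.54 and Bpgm 1.39 ± 0.33 higher (SD, n = 6). Outside the rule for named genes, and chosen after their values were seen, Gpi (glucose-6-phosphate isomerase) averaged 49.03 CPM in elongating and 1.01 CPM in spermatocyte-like cells, and Pfkfb4, a regulator of phosphofructokinase, 41.02 CPM in elongating and 1.16 CPM in spermatocyte-like cells.

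Genes that pass pyruvate on to mitochondria or control that step were counted in the same way. Of 15 listed, 14 were in the tables and 7 had a mean of at least 10 CPM, and of these 1 was higher and 4 lower in elongating than in spermatocyte-like cells, against 21.5% higher and 54.9% lower among all genes, so the counts were near those of all genes. Their median log2 ratio of means was -3.71, against -1.69 for all genes. The higher one was Pdk3, a kinase that inhibits pyruvate dehydrogenase, which averaged 40.3 CPM in elongating and 7.96 CPM in spermatocyte-like cells and was named after its values were seen. Pdhb, a subunit of the pyruvate dehydrogenase complex, averaged 5.29 CPM in elongating and 130 CPM in spermatocyte-like cells. Mpc2, a subunit of the mitochondrial pyruvate carrier, averaged 536 CPM in elongating and 355 CPM in spermatocyte-like cells. Its classes overlapped in CPM, and relative to the median gene it stood 2.28 ± 0.09 higher on the log2 scale (SD, n = 6). Mpc1, another subunit of that carrier, went the other way and was named after its values were seen. With 0.5 CPM added to each level, its log2 ratio of elongating to spermatocyte-like cells averaged -5.45 over the libraries. The size of this ratio depends on the added value where a level is low. Relative to the median gene the Mpc1 value was -3.73, between -5.31 and -2.51.

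Stress was set against control within each class. None of the 9 genes passed the test in any of the 3 classes or in all cells of a library (quasi-likelihood test of edgeR with Benjamini-Hochberg adjustment over all genes, adjusted p of at least 0.992). Over all genes the test called 0% of genes in spermatocyte-like cells, 0.0166% in round spermatids, 0.00896% in elongating ones and 0.00689% in all cells, counted in either direction. For spermatocyte-like cells that was 0 of 9929 genes by edgeR. There 149 genes had an unadjusted p under 0.05 by edgeR. DESeq2 was run on 17073 genes of that class and called 5. Over 409 tests of a gene in a class or in all cells, under all settings tried, the lowest adjusted p was 0.629.

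Ldha in round spermatid-like cells came closest. Its stressed values, 245, 166 and 247 CPM, all lay below its control values, 401, 274 and 412 CPM (log2 change -0.66, SE 0.24, adjusted p = 0.992 by edgeR). The change kept its sign without any 1 library, between -0.84 and -0.49. Ldha was also lower in stressed libraries in spermatocyte-like cells (log2 change -0.47, SE 0.35) and in elongating spermatid-like cells (-0.23, SE 0.28), with overlapping groups. Without any 1 library the spermatocyte value lay between -0.81, without control replicate 2, and -0.17, without control replicate 3, and the elongating value between -0.37, without control replicate 2, and -0.0834, without stressed replicate 2. It was the single one of 9 tested genes whose groups did not overlap in round spermatid-like cells, where 6.41% of all 12059 genes tested were lower in stressed libraries without overlap.

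Gapdhs was higher in the stressed libraries by 0.40 (SE 0.27) on the log2 scale in spermatocyte-like cells and by 0.44 (SE 0.26) in round spermatid-like cells, with overlapping groups. The spermatocyte value was 0.11 without stressed replicate 2, 0.62 without stressed replicate 3 and 0.15 without the 5% of cells with the highest doublet scores, and the round spermatid value lay between 0.27 and 0.69 without any 1 library. The summed elongating markers in spermatocyte-like cells, as a share of their elongating level, were 7.79%, 7.29% and 4.50% in stressed libraries and 5.16%, 3.84% and 6.79% in control libraries. Their part in the Gapdhs change was not tested. In elongating spermatid-like cells the change in Gapdhs was -0.10 (SE 0.37), between -0.34 and 0.14 without any 1 library. It was 0.10 with the unnamed cluster of 278 cells counted as elongating. The difference between elongating and round spermatid-like cells was -0.62 (SE 0.38, adjusted p = 1 by edgeR, where the same test called 0% of 13865 genes and 283 had an unadjusted p under 0.05). It was -0.19 without stressed replicate 1 and -0.96 without stressed replicate 3. These values do not show that the level was the same in both groups, since the spread between libraries was wide.

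Hk1 and Tpi1 each had 1 class without overlap. Hk1 was lower in all 3 stressed libraries in spermatocyte-like cells (log2 change -0.34, SE 0.22), the single one of 7 tested genes, against 6.37% of all genes lower without overlap. Tpi1 was lower in all 3 stressed libraries in elongating spermatid-like cells (log2 change -0.46, SE 0.27), the single one of 8 tested genes, against 3.59% of all genes. Without any 1 library these changes lay between -0.44 and -0.22 for Hk1 and between -0.63 and -0.30 for Tpi1. With the unnamed cluster of 278 cells counted as elongating, the Tpi1 change was -0.17. Neither gene passed the test (adjusted p = 1.00 by edgeR). Pgk2 (log2 change -0.12, -0.09 and -0.17 from spermatocyte-like to elongating spermatid-like cells), Ldhc (0.06, -0.04 and -0.10) and Pgam2 (-0.13, -0.14 and -0.26) had overlapping groups in each class, and standard errors between 0.19 and 0.35. In all cells of a library the groups overlapped for all 9 genes, against 5.56% of all genes whose groups did not.

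**Figure D4:**
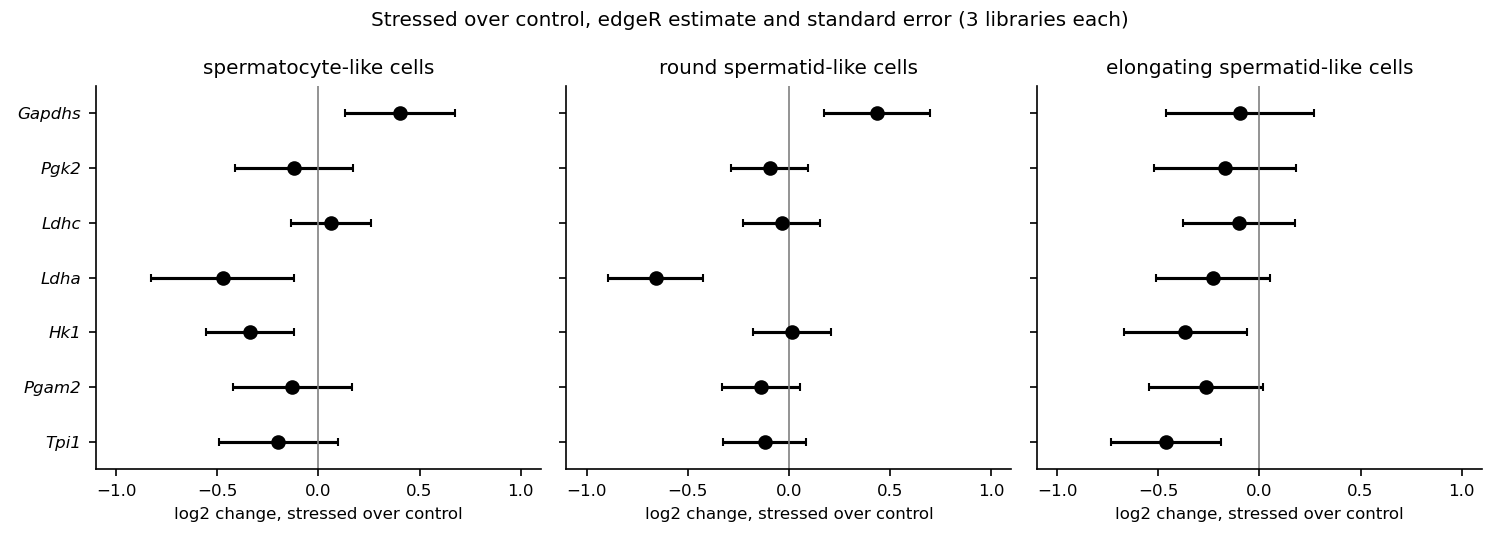
Log2 change of 7 genes, stressed over control, with the standard error of the edgeR fit, in the 3 classes (3 libraries per group). Ldha in round spermatid-like cells lies farthest from 0, at -0.66, and no gene passes the test.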

How the data were processed

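Per the labels' protocols, testis tissue was minced, dissociated with enzymes and made into Singleron libraries. The authors deposited raw counts per gene and cell. Counts may be reads or molecules, which no source states, so intervals and limits cover counting error only, and only if counts are molecules. Over the libraries, 12.4% to 18.4% of the values above 0 equalled 1, and the median value above 0 was 5 to 13. Their second deposited table of each library is in natural log units. Recomputing it as ln(1 + count × 10000 / cell total) left 0 values off by more than 1e-09, and it entered no test. Aligner, counter, build and cell filter: not given in the sources used here. No gene coordinates of the files are printed.

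All 11744 cells were clustered together in Python 3.11.15 (leidenalg 0.10.2, igraph 0.11.9, scikit-learn 1.9.0), from 1987 of 2000 variable genes, which excluded mitochondrial genes and the listed glycolysis and pyruvate genes (30 principal components, 15 neighbours, resolution 1). Clusters were named from 12 marker lists where at least 3 markers supported the name and were at 20 CPM or more, and stayed unnamed where another list held more of the 10 leading genes. No authors' annotation was used. Scrublet in scanpy 1.11.5 marked 72 cells (0.6131%), which were kept.

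Counts were summed per library and class with at least 20 cells, and CPM are these counts scaled to 1000000 counts of the sum. Groups were compared in R 4.3.3 by edgeR 4.0.16 and its quasi-likelihood test (TMM scaling, filterByExpr, robust), with Benjamini-Hochberg adjustment over all genes tested and a threshold of 0.05. Standard errors are the log2 change over the root of F. The test was also run on simulated data. The share of changes it recovered there is not given here, so that run does not show how small a change could be found. Count ratios have 0.5 added to each count on the log2 scale. The median log2 ratios of all genes and the values relative to the median gene have 0.5 CPM added to each level. Alternatives were DESeq2 1.42.0, no filter, a replicate block, no high doublet scores, another clustering and leaving out each library. Labels call the 6 samples separate rats, and p-values measure the spread between them.

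The genes named are the 10 genes, other glycolysis and pyruvate genes at 100 CPM or more in a class mean, and for Gapdhs, Pgk2 and Ldhc the 3 genes with the highest correlation. The members and lists were chosen with earlier results of these data known. The replicate numbers only name the libraries: same-numbered libraries did not deviate together in every pair.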

Additional observations from a re-analysis of the deposited data

Results flagged for a closer look

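A cluster of 21 cells stayed outside the 3 classes and had counts of Gapdh and Pgam1, which the classes nearly lacked, and 0 counts of Aldoa. Gapdh was at 123 CPM there, from 71 counts in 16 of the 21 cells, against 4.80 CPM at most in any sum of a library and class. Pgam1 was at 52.2 CPM, from 30 counts in 9 cells. Gapdhs was at 1493 CPM. The cluster was led by Ptma, Psma7 and Ncl. Its leading genes also held Dazl and the listed spermatogonia marker Crabp1, but no listed stromal marker. Its mean log2 score was highest for stromal markers, at 2.02, and next for spermatogonia markers, at 1.52. It did not meet the rule for a name. These cells entered none of the comparisons, were too few per library to test, and their origin was not tested.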

How the results depend on the processing

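None of the 9 listed genes passed the test under any setting. Over all genes, DESeq2 called 5 of 17073 in spermatocyte-like cells, 18 of 18816 in round spermatids, 3 of 18425 in the elongating class and 14 of 19988 in all cells. On the same numbers of genes, edgeR with no filter called 2 in spermatocyte-like cells, 2 in round spermatids, 5 in the elongating class and 2 in all cells. The main edgeR fits tested 9929, 12059, 11155 and 14519 genes in that order. A block for the replicate number gave 0 calls by edgeR in round spermatids and left the other numbers of calls as in the main fits. It was no pairing by animal. Without 1 library the numbers called were 0 to 0 in spermatocyte-like cells, 0 to 3 in round spermatids, 0 to 2 in the elongating class, 0 to 3 in all cells and 0 to 0 for the difference between classes. Each of these fits tested at least 10025 genes.

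Changes that did not pass turned sign in places. Counting the unnamed cluster of 278 cells as elongating was chosen after seeing the data. It gave log2 changes of 0.10 for Gapdhs, 0.15 for Pgk2, 0.19 for Ldhc, 0.00086 for Ldha and 0.0377 for Pgam2. With no filter they were -0.0199 for Hk1 in round spermatids and -0.0096 for Tpi1 in all cells, and with the replicate block -0.0195 for Tpi1 in all cells. Without 1 library each, log2 changes in spermatocyte-like cells ran from -0.36 to 0.0652 for Pgk2, -0.0285 to 0.19 for Ldhc and -0.32 to 0.0724 for Pgam2. For round spermatids they ran from -1.48 to 0.32 for Gapdh, -0.19 to 0.0331 for Pgk2, -0.12 to 0.14 for Ldhc, -0.12 to 0.12 for Hk1 and -0.58 to 0.58 for Aldoa, for the elongating class from -0.34 to 0.14 for Gapdhs, -1.52 to 2.11 for Gapdh, -0.47 to 0.16 for Pgk2 and -0.21 to 0.0438 for Ldhc, and for all cells from -1.94 to 2.44 for Gapdh, -0.11 to 0.38 for Hk1, -0.0189 to 0.23 for Pgam2, -0.27 to 0.56 for Aldoa and -0.24 to 0.16 for Tpi1. The cause was not tested.

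The log2 shift of Ldhc over Ldha was between 1.04 and 1.27 without any 1 library. Stressed replicate 1, with 24 spermatocyte-like cells, limits the precision of every stressed value, and Gapdh and Aldoa are too rarely counted to compare.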
